A study of Mus musculus with 8 samples.

Results

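The 10 genes described here encode chemokines, small secreted or membrane-anchored proteins that attract leukocytes: Ccl2, Ccl5, Ccl7, Ccl8, Ccl9, Cxcl1, Cxcl5, Cxcl10, Cxcl12 and Cx3cl1. They were taken by symbol from a table of 23304 genes, and all 10 were found in each table. Their transcripts were counted by RNA sequencing of NIH3T3 cells, an immortalised mouse fibroblast line of Swiss albino origin. The labels give 4 groups of 2 libraries each: unedited cells (WT) without agent at 0 h, WT cells given recombinant mouse interferon-beta (IFN-β, 100 units/ml) for 2 h, and cells carrying a CRISPR knockout of Zmynd11 (KO), again without agent at 0 h or with IFN-β for 2 h. The labels do not say how many KO clones were used, nor whether replicates are separate cultures. The p-values therefore reflect the spread among these libraries alone, which may be technical.

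Chemokines are named after the spacing of their first cysteines (CC, CXC, CX3C) and signal through G protein-coupled receptors on leukocytes. Fibroblasts are a main stromal source of several of them. The monocyte attractants and the neutrophil attractants are classical targets of NF-kB, Cxcl10 is also a classical target of interferons through Stat and Irf factors, and Cxcl12 is a homeostatic chemokine made by unstimulated stroma. Zmynd11 encodes a reader of a histone methyl mark.

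The promoters of 4 of these genes are shown because their transcripts fell into different patterns across the groups, described further on. Cxcl10 differed most between the KO and WT labels. Cxcl1 was lower under the 2 h labels and did not pass the test between KO and WT labels at either time. Cxcl12 and Cx3cl1 were among the genes with the largest differences between the 0 h and 2 h labels. Windows of 300 bases, from 250 before to 50 after the annotated start, were available for 6 of the 10 genes from RefSeq (GRCm38.p6). Capitals mark matches to the interferon-stimulated response element (ISRE, GAAA, any 2 bases and GAAA), the NF-kB consensus, the AP-1 element (TGANTCA), each on both strands, and the TATA box (TATAAA, gene strand only).
Cxcl10 promoter, chr5:92348840-92349139, minus strand: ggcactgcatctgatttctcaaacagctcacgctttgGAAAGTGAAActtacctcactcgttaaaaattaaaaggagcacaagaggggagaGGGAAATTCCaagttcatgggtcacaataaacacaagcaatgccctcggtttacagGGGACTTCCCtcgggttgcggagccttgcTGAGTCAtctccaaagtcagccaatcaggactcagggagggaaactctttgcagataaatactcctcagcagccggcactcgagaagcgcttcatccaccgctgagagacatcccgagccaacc
Cxcl1 promoter, chr5:90890995-90891294, plus strand: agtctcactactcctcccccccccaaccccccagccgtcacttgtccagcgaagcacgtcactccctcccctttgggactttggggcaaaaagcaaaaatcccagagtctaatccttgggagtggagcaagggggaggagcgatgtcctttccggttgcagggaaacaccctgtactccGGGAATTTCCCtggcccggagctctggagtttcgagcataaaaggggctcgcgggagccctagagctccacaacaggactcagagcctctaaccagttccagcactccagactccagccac
Cxcl12 promoter, chr6:117168285-117168584, plus strand: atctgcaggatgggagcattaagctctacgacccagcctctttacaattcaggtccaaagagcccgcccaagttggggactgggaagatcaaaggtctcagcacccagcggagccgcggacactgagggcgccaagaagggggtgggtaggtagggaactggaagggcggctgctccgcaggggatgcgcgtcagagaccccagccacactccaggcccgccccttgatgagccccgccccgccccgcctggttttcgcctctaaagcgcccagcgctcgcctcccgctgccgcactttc
Cx3cl1 promoter, chr8:94771930-94772229, plus strand: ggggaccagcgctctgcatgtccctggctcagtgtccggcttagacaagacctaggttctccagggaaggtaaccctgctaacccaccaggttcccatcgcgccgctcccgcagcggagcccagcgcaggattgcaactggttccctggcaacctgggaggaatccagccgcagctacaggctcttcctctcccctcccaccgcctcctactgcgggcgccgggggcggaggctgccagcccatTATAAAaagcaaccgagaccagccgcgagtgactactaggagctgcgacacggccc

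Among the 6 windows, the ISRE letters were found in that of Cxcl10 alone, at position -213 from the start, and 3.44% of the 32851 promoter windows of the same length hold them. The Cxcl10 window also held 2 NF-kB matches, at -159 and -103, and an AP-1 match at -74. The NF-kB match of Cxcl1 is nearly palindromic and was read on both strands, at -71 and -70, so its 2 matches overlap. The Ccl9 window, not printed, held 1 NF-kB and 1 AP-1 match, and NF-kB and AP-1 letters occur in 4.51% and 7.81% of all windows. A TATAAA match lay in the windows of Ccl8 (at -32), Ccl9 (at -92) and Cx3cl1 (at -6), and 8.32% of all windows hold these letters. They were matched at any position in the window, not only where a TATA box would act. The Cxcl12 window held none of the 4 motifs. These matches describe letters, and binding was not measured.

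Gene reads summed to 13671013 to 21299120 per library, and 14847 to 15945 genes had reads in 7 libraries against 17498 in the one labelled KO 0 h replicate 2. Levels are given in CPM, the reads of a gene relative to library sizes scaled for composition, and a single read was worth 0.0459 to 0.0700 CPM. The targeted gene goes against the genotype labels: Zmynd11 stood at 123 and 120.3 CPM in WT 0 h, at 137 and 131 in KO 0 h, at 3.18 and 3.61 in WT 2 h and at 3.31 and 4.69 in KO 2 h. Zmynd11 was thus low under the 2 h labels and not under the KO 0 h label, so each difference between time labels below is also a difference in Zmynd11, and the time of IFN-β and the level of Zmynd11 cannot be told apart there. Stat2, an interferon signalling gene, stood at 223 CPM in KO 0 h, labelled as without agent, and at 27.9 in WT 2 h, labelled as given IFN-β (means, n = 2). Whether the labels KO 0 h and WT 2 h are exchanged was not tested. If they were, the KO minus WT differences at 0 h and 2 h would be time differences within WT and KO, and the time differences within WT and KO would be KO minus WT differences at 0 h and 2 h. The difference between KO 0 h and WT 2 h would change sign, and that between KO 2 h and WT 0 h and the interaction value would stay the same. All groups are named as the libraries are labelled. Of the fibroblast markers listed, Col1a1, Col1a2, Vim, Pdgfra, Pdgfrb, Thy1 and S100a4 were read in all 8 libraries, and Lum had 8 reads in 4 of them. The leukocyte markers listed were also read in all 8 libraries, so being read does not by itself bear out the cell type.

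The chemokine transcripts fell into 3 patterns over the 4 groups. Ccl9, Cxcl1, Cxcl5, Cxcl12 and Cx3cl1 were lower in both groups labelled 2 h than in both labelled 0 h, and did not pass the test between KO and WT labels at either time. Ccl2 and Ccl7 were lower under the 2 h labels and also higher under the KO label at each time. Cxcl10 was mainly divided by the genotype label, at 25.3 ± 3.29 CPM in KO 0 h and 6.36 ± 0.486 in KO 2 h against 0.564 ± 0.175 in WT 0 h and 0.498 ± 0.552 in WT 2 h (mean ± SD, n = 2 each). Ccl8 and Ccl5 were read in every library at low levels, and Ccl5 did not pass the filter on low counts.

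**Figure D1:**
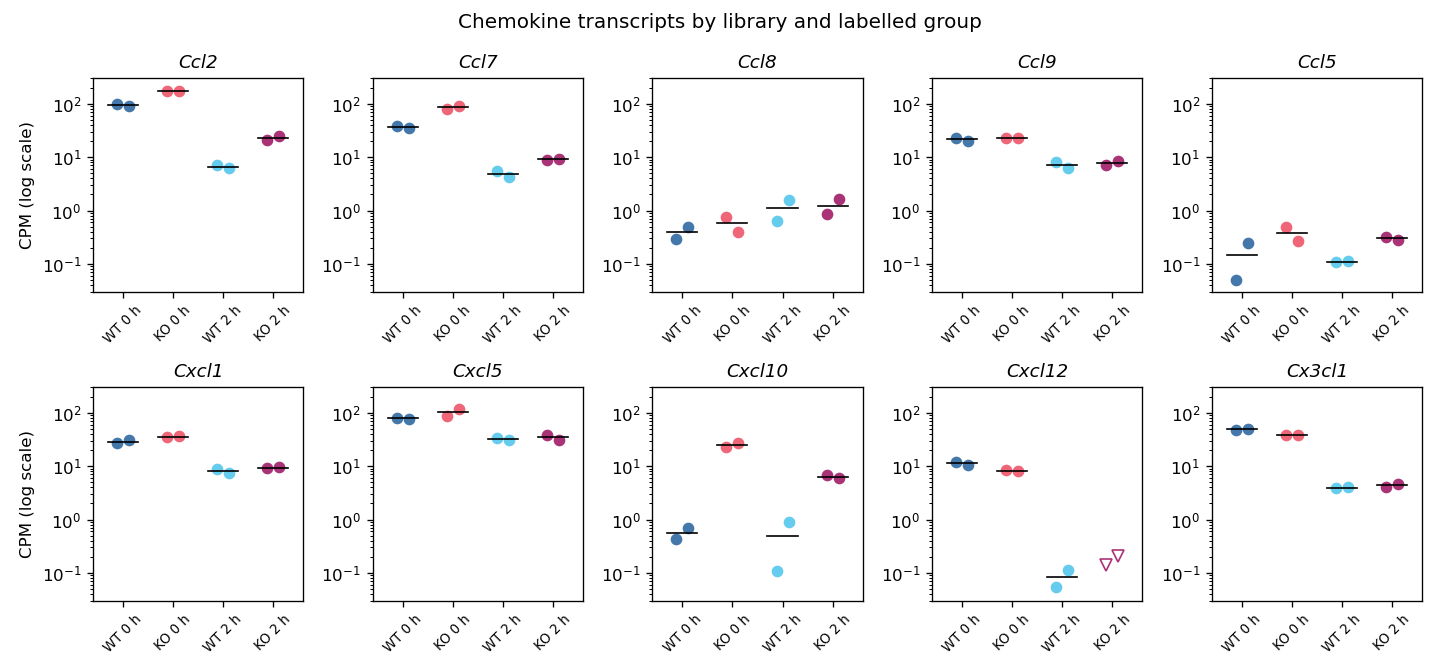
CPM on a log axis of the 10 chemokine genes in the 8 libraries, with 2 points per labelled group and a line at their mean; open triangles stand at the limit of 3 reads for libraries without reads. Ccl2 spans 6.28 to 175 CPM, Cxcl10 separates KO from WT labels, and Cxcl12 has no reads under the KO 2 h label.

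The monocyte attractant Ccl2, a ligand of Ccr2, stood at 98.1 and 91.8 CPM in WT 0 h, 175 and 172 in KO 0 h, 7.07 and 6.28 in WT 2 h, and 20.9 and 24.7 in KO 2 h. No groups overlapped, and each step in the order KO 0 h, WT 0 h, KO 2 h, WT 2 h passed the test (edgeR quasi-likelihood, adjusted p = 1.62e-07, 2.8e-14 and 3.02e-10). Ccl2 was higher in KO than in WT by 0.87 on the log2 scale at 0 h (SE 0.09) and by 1.76 at 2 h (SE 0.12). From 0 h to 2 h it changed by -3.83 between the WT labels (SE 0.11) and by -2.94 between the KO labels (SE 0.10).

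On the log2 scale, the fall of Ccl2 from 0 h to 2 h was smaller under the KO label. In CPM it was larger there, with means of 173 and 22.8 under the KO label and 95.0 and 6.67 under the WT label. The interaction, the difference between the KO and WT changes, was 0.89 (SE 0.15, edgeR adjusted p = 0.00936). Ccl2 was the only chemokine gene called in this test among the 9 tested, against 0.133% of all 12807 genes (0.0547% higher, 0.0781% lower). The interaction was 0.97 without the library labelled WT 2 h replicate 1 (edgeR adjusted p = 0.107) and 0.80 without WT 2 h replicate 2 (0.0773), and so was not called in either case.

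Ccl7, another ligand of Ccr2, stood at 38.4 and 34.7 CPM in WT 0 h, 79.9 and 91.3 in KO 0 h, 5.45 and 4.17 in WT 2 h, and 8.87 and 9.24 in KO 2 h. Its groups had the same order as those of Ccl2 and did not overlap. Ccl7 was higher in KO than in WT by 1.23 on the log2 scale at 0 h (SE 0.11, edgeR adjusted p = 2.03e-08) and by 0.91 at 2 h (SE 0.16, edgeR adjusted p = 0.00109). Without the library labelled WT 2 h replicate 2 the difference at 2 h was 0.72 (edgeR adjusted p = 0.0926). From 0 h to 2 h Ccl7 changed by -2.92 between the WT labels (SE 0.14) and by -3.24 between the KO labels (SE 0.13), and the interaction of -0.32 (SE 0.20, edgeR adjusted p = 0.518) was not called.

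Ccl2 and Ccl7 are neighbours on chromosome 11, by the gene order of RefSeq. The next gene, Ccl11, had 22 reads over the 8 libraries together, and Ccl12 and Ccl8, further along, had 7 and 118, against 10673 for Ccl2 and 4811 for Ccl7. High counts were thus confined, within these 5 neighbouring chemokine genes, to Ccl2 and Ccl7 in these libraries.

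Ccl8, which in mouse acts through Ccr8, had 6 and 10 reads in WT 0 h, 14 and 6 in KO 0 h, 12 and 28 in WT 2 h, and 19 and 23 in KO 2 h. It was the only tested chemokine gene with a higher mean under both 2 h labels, and its difference between the WT labels was called (log2 fold change 1.47, SE 0.62, edgeR adjusted p = 0.0437). That call was lost without WT 0 h replicate 1 (1.14, edgeR adjusted p = 0.251), without WT 0 h replicate 2 (1.87, 0.0816), without WT 2 h replicate 2 (0.74, 0.485) and in DESeq2 (1.5, 0.0748). Between the KO labels the value was 1.0 (SE 0.59, edgeR adjusted p = 0.152). None of the 3 steps in the order of its 4 group means passed.

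Ccl5, a T cell attractant and a common antiviral chemokine, had 1 and 5 reads in WT 0 h, 9 and 4 in KO 0 h, 2 in each library of WT 2 h, and 7 and 4 in KO 2 h. Its group sums were 6, 13, 4 and 11 reads, and no test was made at this depth.

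Ccl9, a ligand of Ccr1, stood at 23.2 and 19.99 CPM in WT 0 h, 22.8 and 22.5 in KO 0 h, 8.09 and 6.39 in WT 2 h, and 7.03 and 8.61 in KO 2 h. The groups overlapped within each time label and not between the time labels. From 0 h to 2 h Ccl9 changed by -1.57 on the log2 scale between the WT labels (SE 0.15, edgeR adjusted p = 7.25e-09) and by -1.55 between the KO labels (SE 0.15, edgeR adjusted p = 1.04e-08). The KO minus WT differences were 0.07 at 0 h (SE 0.14) and 0.09 at 2 h (SE 0.17).

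The neutrophil attractants Cxcl1 and Cxcl5 signal through Cxcr2. Cxcl1 stood at 27.2 and 30.4 CPM in WT 0 h, 34.6 and 37.1 in KO 0 h, 8.68 and 7.50 in WT 2 h, and 9.23 and 9.52 in KO 2 h. Cxcl5 stood at 79.2 and 78.1 CPM in WT 0 h, 88.3 and 117 in KO 0 h, 34.1 and 30.9 in WT 2 h, and 38.6 and 31.3 in KO 2 h. All libraries labelled 2 h lay below all those labelled 0 h for both genes. For Cxcl1 the KO libraries also lay above the WT ones at each time (51.5% and 29.7% of all genes did not overlap at 0 h and 2 h). Its KO minus WT difference at 2 h was 0.21 on the log2 scale (SE 0.15) and did not pass.

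Cxcl1 changed from 0 h to 2 h by -1.83 on the log2 scale between the WT labels (SE 0.13, edgeR adjusted p = 5.76e-11) and by -1.94 between the KO labels (SE 0.13, edgeR adjusted p = 1.82e-11). Cxcl5 changed by -1.27 (SE 0.12, edgeR adjusted p = 7.65e-09) and by -1.55 (SE 0.12, edgeR adjusted p = 3.55e-10). At 0 h, the KO minus WT difference was 0.32 for Cxcl1 (SE 0.12, edgeR adjusted p = 0.122) and 0.38 for Cxcl5 (SE 0.11, edgeR adjusted p = 0.0584), neither of which passed. The Cxcl5 difference passed without KO 0 h replicate 1 (0.54, edgeR adjusted p = 0.00176), KO 2 h replicate 1 (0.38, 0.0257) or KO 2 h replicate 2 (0.38, 0.0259), and was 0.16 (edgeR adjusted p = 0.523) without KO 0 h replicate 2, which holds its highest value.

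Cxcl10, which attracts T cells and natural killer cells through Cxcr3, had 9 and 14 reads in WT 0 h (0.439 and 0.688 CPM), 417 and 414 in KO 0 h (23.0 and 27.7 CPM), 2 and 16 in WT 2 h (0.108 and 0.889 CPM), and 146 and 86 in KO 2 h (6.71 and 6.02 CPM). All 4 libraries labelled KO lay above all 4 labelled WT. Cxcl10 was 44.4-fold higher in KO 0 h than in WT 0 h (5.47 on the log2 scale, SE 0.31, edgeR adjusted p = 7.06e-12), and 12.8-fold higher in KO 2 h than in WT 2 h (3.68, SE 0.37, edgeR adjusted p = 2.67e-07). At 0 h the value was 5.33 without the library labelled KO 0 h replicate 2.

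From 0 h to 2 h, Cxcl10 fell by 1.98 on the log2 scale between the KO labels (SE 0.22, edgeR adjusted p = 5.83e-08). It gave -0.19 between the WT labels (SE 0.57, edgeR adjusted p = 0.794), where its libraries overlapped, and the interaction of -1.79 (SE 0.64, edgeR adjusted p = 0.289) was not called. The WT 2 h libraries decide these values: without replicate 2 the WT change was -2.28 (edgeR adjusted p = 0.0293) and the KO minus WT difference at 2 h 5.80, and without replicate 1 the latter was 2.83. The interaction was 0.33 without replicate 2 (edgeR adjusted p = 0.895).

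Cxcl12, the ligand of Cxcr4 and of the scavenging receptor Ackr3 (listed in the tables as Cxcr7), had 250 and 211 reads in WT 0 h (12.2 and 10.4 CPM), 152 and 122 in KO 0 h (8.38 and 8.15 CPM), 1 and 2 in WT 2 h, and none in either library of KO 2 h. The 2 h groups lay at the counting floor, at which 3 reads over a group are worth 0.0821 and 0.0832 CPM. By reads, Cxcl12 was 138-fold higher in WT 0 h than in WT 2 h (95% exact interval 46.8 to 669, counting error only). It was at least 99.5-fold higher in KO 0 h than in KO 2 h and at least 136-fold higher in WT 0 h than in KO 2 h, against 3 reads over the KO 2 h group. Between the 0 h groups the KO minus WT difference was -0.45 (SE 0.19, edgeR adjusted p = 0.185), and the 2 h groups are both at or under the floor.

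Cx3cl1, a membrane-anchored chemokine that is shed to attract cells bearing Cx3cr1, stood at 47.1 and 50.5 CPM in WT 0 h, 38.9 and 38.7 in KO 0 h, 3.83 and 4.0 in WT 2 h, and 4.13 and 4.69 in KO 2 h. The 2 h libraries lay about an order of magnitude below the 0 h ones. The change was -3.64 on the log2 scale between the WT labels (SE 0.14, edgeR adjusted p = 6.42e-16) and -3.15 between the KO labels (SE 0.14, edgeR adjusted p = 9.17e-15). KO minus WT gave -0.33 at 0 h (SE 0.11, edgeR adjusted p = 0.0776) and 0.16 at 2 h (SE 0.18, edgeR adjusted p = 1).

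**Figure D2:**
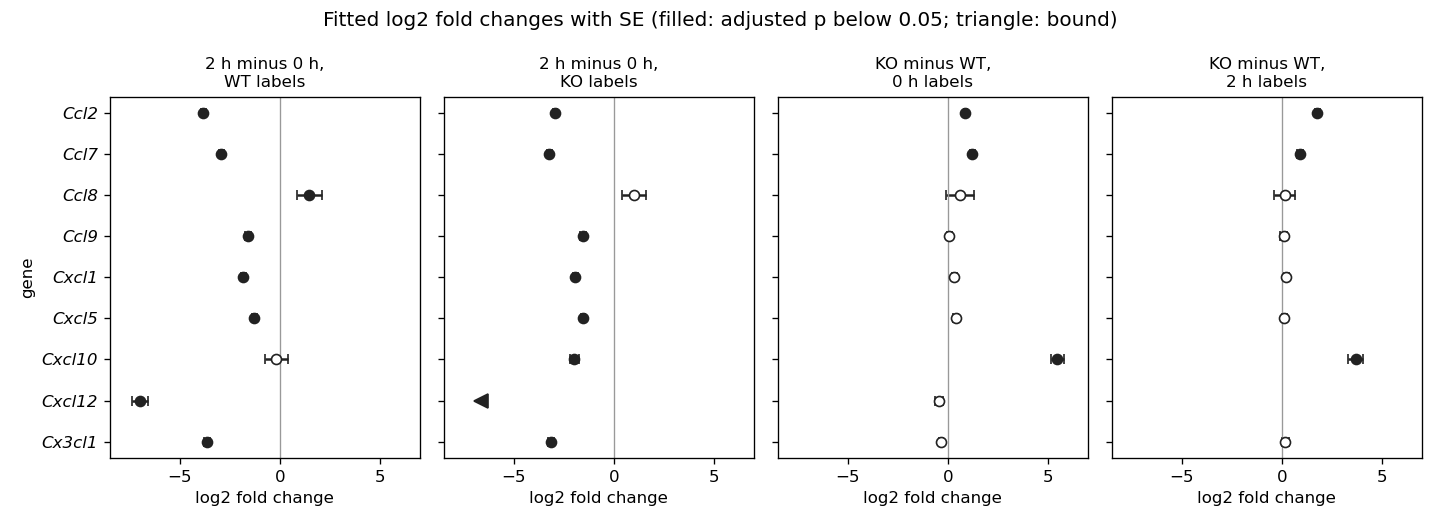
Fitted log2 fold changes (x axis) of the 9 tested chemokine genes in 4 comparisons between labelled groups, with SE as bars and filled points where the edgeR adjusted p is below 0.05; the triangle is the bound for Cxcl12, which has no reads in KO 2 h, and its value between the 2 h groups is left out. Changes between time labels lie mostly to the left of 0, and Ccl2, Ccl7 and Cxcl10 lie to the right in both KO minus WT panels.

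Counted over the 9 tested genes, 7 were lower and 1 higher in WT 2 h than in WT 0 h, where 61.2% of all genes were called (30.1% higher, 31.1% lower). The median of the 9 was -1.83 on the log2 scale, against 0.01 for all genes. Between the KO labels 8 were lower and none higher (61.1% of all genes called, 30% higher and 31.2% lower), with a median of -1.98 against -0.01, and both medians stayed the same with Cxcl12 at its bound. KO against WT gave 3 higher and none lower at 0 h, against 3.92% of all genes called (2.65% higher, 1.27% lower). The same 3 genes, Ccl2, Ccl7 and Cxcl10, were higher at 2 h, against 1.6% (1.59% higher, 0.00781% lower). Genes lower in KO at an unadjusted edgeR p under 0.05 were Cxcl12 and Cx3cl1 at 0 h and none at 2 h, and DESeq2 also called 3 members at each time. The medians there were 0.38 and 0.16, against 0.01 and -0.01 for all genes. Libraries of the groups did not overlap for 8 of the 9 genes between the WT time labels and for all 9 between the KO ones (82.6% and 77.5% of all genes), and for 7 and 6 of the 9 between KO and WT at 0 h and 2 h (51.5% and 29.7%). The 6 at 2 h include Cxcl12, which had 1 and 2 reads in WT 2 h and none in KO 2 h. Comparisons that share a group share its libraries.

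The groups that differ in both labels were also compared. KO 0 h against WT 2 h gave 8 higher and none lower (60.3% of all genes called, 31.5% higher and 28.8% lower), and 8 genes did not overlap (78.4% of all genes). Ccl2 was 26.0-fold, Ccl7 17.7-fold, Cxcl10 50.6-fold and Cx3cl1 9.90-fold higher in KO 0 h. The Cxcl10 value, 5.66 on the log2 scale, was 7.75 without WT 2 h replicate 2 and 4.78 without WT 2 h replicate 1.

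KO 2 h against WT 0 h gave 2 higher and 7 lower (62.3% of all genes called, 30.8% higher and 31.4% lower), and no gene of the 9 overlapped (81.9% of all genes did not). Cxcl10 was 11.2-fold higher in KO 2 h (SE 0.35 on the log2 scale), while Ccl2 differed by -2.07 and Ccl7 by -2.02. The other gene called higher was Ccl8 (1.60, SE 0.61, edgeR adjusted p = 0.0277). Its call was lost without WT 0 h replicate 1 (1.28, edgeR adjusted p = 0.19), WT 0 h replicate 2 (2.01, 0.0587) or KO 2 h replicate 2 (1.16, 0.213).

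Levels of different genes were set side by side per kilobase of the longest coding transcript in GENCODE M21. These levels are approximate (counted annotation not given in the sources used here). Ccl2 held the largest share of the summed CPM per kilobase of the 10 genes in WT 0 h (44.3 and 42.9%), KO 0 h (48.0 and 44.0%) and KO 2 h (31.4 and 36.1%). In WT 2 h its share was 16.8 and 16.2%, and Cxcl5 was first with 41.9 and 41.2%. Ccl7 followed in KO 0 h with 22.3 and 23.7%, whereas Cxcl10 held 3.80 and 4.24% there although it differed most between the genotype labels.

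**Figure D3:**
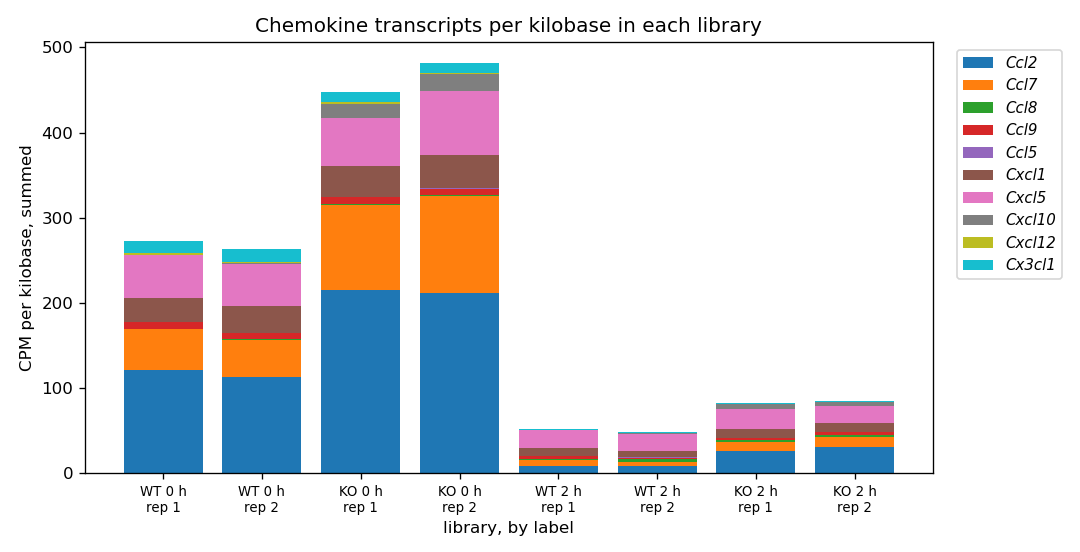
CPM per kilobase of the 10 chemokine genes, stacked, in each of the 8 libraries by label (linear axis from 0). Ccl2 makes up 42.9 to 48.0% of the stack in the 4 libraries labelled 0 h, and Cxcl5 is the largest part in both libraries labelled WT 2 h.

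The sum of the 10 genes, in CPM, was 326 and 317 in WT 0 h, 472 and 516 in KO 0 h, 68.1 and 61.9 in WT 2 h, and 96.6 and 96.0 in KO 2 h. With the 28 other ligand genes found in the tables it was 352 and 342 in WT 0 h, 499 and 543 in KO 0 h, 81.8 and 75.9 in WT 2 h, and 110.4 and 110.7 in KO 2 h. Of those 28 ligands, 6 passed the filter on low counts. In each time comparison 3 of the 6 were called, all lower, and 3 were not called. Of all genes, 61.2% were called between the WT labels (31.1% lower) and 61.1% between the KO labels (31.2% lower). Ccl17, a ligand of Ccr4, was lower under the 2 h labels (WT labels -3.35, SE 0.55; KO labels -3.54, SE 0.57), as was the platelet chemokine gene Ppbp, next to Cxcl5 on chromosome 5 (-1.25, SE 0.20; -1.33, SE 0.20). Ccl25, known from the thymus and gut, changed by -0.68 (SE 0.16) and -0.49 (SE 0.16). In edgeR none of the 6 passed between KO and WT labels at either time, and 1 had an unadjusted p under 0.05 at 0 h (Ccl27a) and 0 at 2 h. The interferon-induced ligands Cxcl9 and Cxcl11, which share Cxcr3 with Cxcl10, had 1 read each over all 8 libraries.

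Receptors were scarcely read, with 5 of 24 genes tested. Cxcr7, the scavenger of Cxcl12, stood at 56.5 and 56.7 CPM in WT 0 h, 54.3 and 58.1 in KO 0 h, 9.33 and 10.3 in WT 2 h, and 11.6 and 11.8 in KO 2 h. It was divided by the time label as Cxcl12 was, and changed by -2.53 between the WT labels (SE 0.11) and by -2.26 between the KO labels (SE 0.11). Cxcr5, the receptor of Cxcl13, was called only between the KO labels (1.04, SE 0.44, edgeR adjusted p = 0.0429) and between KO 0 h and WT 2 h (-1.18, SE 0.43). Cxcr4, the signalling receptor of Cxcl12, had 5 reads and Cxcr2, the receptor of Cxcl1 and Cxcl5, also 5, over all libraries.

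Chemokines are trimmed by proteases and held on heparan sulphate. Of 8 tested proteases, 3 were higher and 2 lower in WT 2 h than in WT 0 h, and 3 and 3 between the KO labels, which is near the 61.2% and 61.1% of all genes called there. Mmp2, a gelatinase that cleaves Ccl7 and Cxcl12, changed by -1.24 (SE 0.08) and -1.13 (SE 0.08), while the membrane protease Mmp14 rose by 0.75 (SE 0.07) and 0.88 (SE 0.07). Adam17, which sheds Cx3cl1, fell by 0.35 between the WT labels (SE 0.09) and was also called lower between the KO labels. Of 10 heparan sulphate genes, 7 were lower and 2 higher in each time comparison. Of all genes, 31.1% were lower and 30.1% higher between the WT labels, and 31.2% and 30% between the KO labels. The core protein gene Sdc1 changed by -1.81 (SE 0.10) and -1.50 (SE 0.10), while Ndst1 was higher between the KO labels (0.76, SE 0.08). In edgeR no gene of either list passed between KO and WT labels. At an unadjusted p under 0.05 there were 2 proteases and 5 heparan sulphate genes at 0 h, and 0 of each at 2 h.

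Genes of the interferon and NF-kB pathways act upstream of chemokines, and the 2 lists were not tested against each other. Of 11 genes of the interferon receptor, Stat and Irf list, 5 were higher in KO than in WT at each time and none was lower (3.92% of all genes called at 0 h and 1.6% at 2 h). In each time comparison 5 of the 11 were higher and 1 lower (61.2% and 61.1% of all genes called). Irf1, a transcription factor induced by interferons, stood at 21.5 and 22.5 CPM in WT 0 h, 116 and 112 in KO 0 h, 17.3 and 21.6 in WT 2 h, and 120 and 103 in KO 2 h. Like Cxcl10, it was higher in all libraries labelled KO than in all those labelled WT.

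Stat2 was higher in KO by 3.93 at 0 h (SE 0.10) and 3.57 at 2 h (SE 0.09), and Irf7 by 3.10 (SE 0.24) and 3.75 (SE 0.23). Of the NF-kB list, none of 13 genes passed in edgeR between KO and WT labels (4 at an unadjusted p under 0.05 at 0 h, 0 at 2 h). In the same list 7 passed between the time labels of WT (6 higher, 1 lower) and 7 between those of KO (5 higher, 2 lower), near the 61.2% and 61.1% of all genes called. Tnfaip3, an inhibitor of NF-kB signalling, stood at 7.32 and 4.52 CPM in WT 0 h and at 39.8 and 34.0 in WT 2 h, and rose by 2.64 (SE 0.16) and by 2.5 between the KO labels (SE 0.16). Nfkb1, which encodes the p50 subunit, changed by -0.91 (SE 0.09) and -0.87 (SE 0.09).

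**Figure D4:**
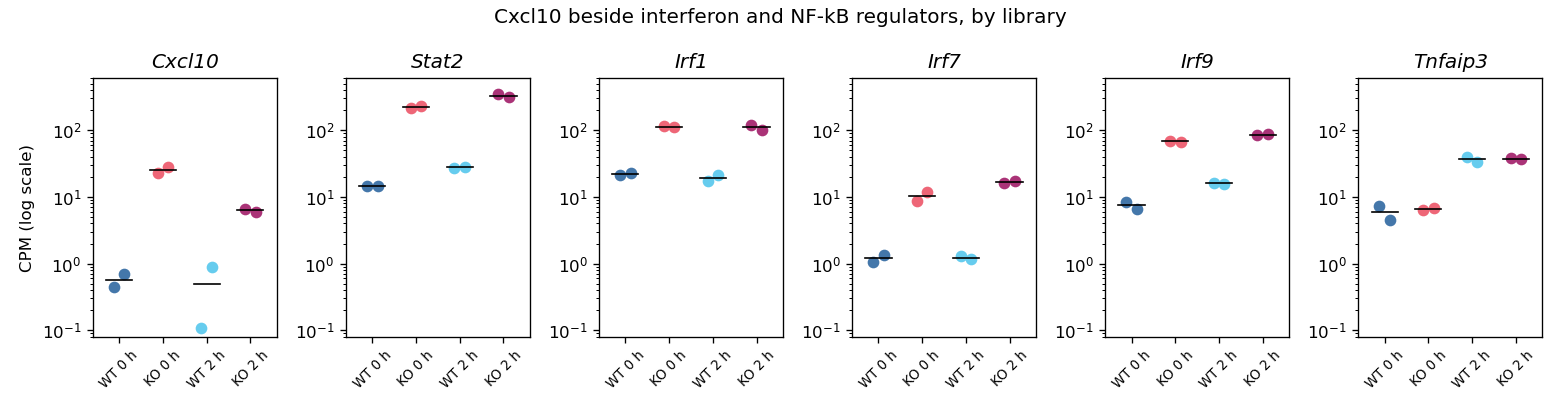
CPM on a log axis of Cxcl10 and of 5 upstream genes in the 8 libraries, with 2 points per labelled group and a line at their mean. Stat2, Irf1, Irf7 and Irf9 are higher in the libraries labelled KO, as Cxcl10 is, and Tnfaip3 is higher in those labelled 2 h.

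Among 6 genes that set the stability of chemokine mRNAs, Zfp36, whose protein binds AU-rich elements and promotes decay, differed along both labels. It stood at 9.38 and 9.09 CPM in WT 0 h, 11.9 and 15.03 in KO 0 h, 22.2 and 21.1 in WT 2 h, and 37.5 and 35.6 in KO 2 h. It was higher in KO by 0.54 at 0 h (SE 0.14, edgeR adjusted p = 0.0367) and by 0.76 at 2 h (SE 0.12, edgeR adjusted p = 0.000291), and rose from 0 h to 2 h by 1.23 (SE 0.13) and 1.45 (SE 0.13). The RNase gene Zc3h12a rose by 0.64 (SE 0.16) and 1.14 (SE 0.16), and the stabilising factor Elavl1 changed by -0.53 (SE 0.08) and -0.49 (SE 0.08). Zfp36l1 went the other way from Zfp36 between the time labels, at -0.47 (SE 0.10) and -0.36 (SE 0.10). Of the 6, 2 were called higher and 3 lower between the WT labels (61.2% of all genes called). Between the KO labels 3 were called higher and 2 lower (61.1% of all genes called).

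Over the 8 libraries, the log2 CPM of Ccl2 and Ccl7 had a Pearson r of 0.98, and those of Cxcl12 and Cx3cl1 0.99. Ccl8 was least like the others, with r from -0.78 to -0.63 with all but Cxcl10 and 0.13 with Cxcl10. The r of Cxcl10 with the remaining genes was 0.17 to 0.54. Among 9932 genes averaging 5 CPM or more, Oasl2 and Apol6 were among the 3 most like Cxcl10 (r = 0.95 each), and 35 genes reached 0.9. For Ccl2 they were Ept1 (0.99), Endod1 (0.99) and Me1 (0.98), with 1275 genes at 0.9 or above, and Ltbp2 and Bgn were among the 3 most like Cx3cl1, with 2585. Such values describe 8 libraries that share 4 group labels and mostly the split by time label.

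Fibroblast markers moved with the time labels as well. The summed level of 8 fibroblast markers was 28017 to 31636 CPM at 0 h and 7836 to 8286 CPM at 2 h, by label. Most of that fall came from collagen genes: Col1a1 averaged 10521 CPM in WT 0 h and 928 in WT 2 h, and Col1a2 11757 and 1991. Of the 7 tested, 6 were lower and 1 higher in WT 2 h than in WT 0 h (61.2% of all genes called, 30.1% higher and 31.1% lower). Between the KO labels 5 were lower, 1 higher and 1 not called (61.1% of all genes called, 30% higher and 31.2% lower). In KO against WT, Pdgfrb was called lower at 0 h (-0.38, SE 0.09, edgeR adjusted p = 0.0182), where 3.92% of all genes were called. No fibroblast marker was called at 2 h (1.6% of all genes). At an unadjusted edgeR p under 0.05 there were 3 at 0 h and 0 at 2 h. Lum, the untested one, had 1 to 3 reads in each 0 h library and none in the 2 h ones. In bulk RNA, fewer cells of a type and less RNA per cell cannot be told apart. The 7 leukocyte markers, from cells that make some of the same chemokines, were read in every library, at 37.8 and 38.4 CPM in sum in WT 0 h, 48.7 and 75.3 in KO 0 h, 57.9 and 56.4 in WT 2 h, and 42.4 and 78.5 in KO 2 h. Of the 7, Lyz2 was called higher in WT 2 h than in WT 0 h, and Cd68 lower in KO 2 h than in KO 0 h. The others were not called between time labels, where 61.2% (WT) and 61.1% (KO) of all genes were. No leukocyte marker passed in edgeR between KO and WT labels, and 3 had an unadjusted p under 0.05 at 0 h and 1 at 2 h. Endothelial markers summed to 2.46 to 5.08 CPM at 0 h and 12.2 to 14.7 CPM at 2 h, where Vwf made up most of the sum. Epithelial markers summed to 6.20 to 7.17 CPM at 0 h and 2.99 to 3.85 CPM at 2 h. Krt14 was called lower in both time comparisons (-2.91, SE 0.44, and -1.90, SE 0.44), and Cdh1 between the KO labels (-0.84, SE 0.26). The part of the listed markers in the chemokine results was not tested.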

How the data were processed

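The authors deposited 1 table of raw read counts per gene symbol for each library, with 4 summary lines. The tools named per the submitters' processing notes are STAR 2.5.2b, HTSeq and bcl2fastq 2.15, with build mm9 (annotation and strand setting not given in the sources used here). The summary lines held 36.9 to 43.2% of all reads (14.1 to 17.0% multimapping) and entered neither library sizes nor tests. Reads of near-identical genes can therefore be missed, and reads of antisense partners may be mixed.

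The count analysis used edgeR 4.0.16 (R 4.3.3). filterByExpr (minimum count 10, minimum total 15) kept 12807 genes, and CPM use TMM-scaled library sizes. All 8 libraries entered 1 quasi-likelihood fit of the 4 group means (4 residual degrees of freedom). The threshold was 0.05 on the p adjusted by Benjamini and Hochberg over all tested genes. The 7 comparisons were the 6 pairs of groups and the interaction. Each SE is the absolute log2 fold change divided by the square root of the F statistic of its test. It is thus derived from the test, not a standard error read from the fit. Intervals and floors (3 reads) cover counting error only. Replicates of a group differed by more than counting noise.

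The 10 genes were all named. Some genes that the naming rule selected are not reported here. In other lists up to 4 called genes per comparison could be named (mean of at least 1 CPM, groups not overlapping), and the 3 most correlated genes per chemokine. Cxcl9, Cxcl11, Cxcr2, Cxcr4, Lum and the neighbouring genes were named after their values were seen. The members and lists were chosen with earlier results of these data known. Alternatives were RLE factors, library size alone, DESeq2 1.42.0, no filter, 1 CPM in 2 libraries, a replicate block and the omission of each library in turn, with the lone library of a group assumed to vary like the others.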

Additional observations from a re-analysis of the deposited data

Results flagged for a closer look

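The change of Ccl2 from 0 h to 2 h differed between the KO and WT labels by 0.89 on the log2 scale (SE 0.15, edgeR adjusted p = 0.00936), tested by the interaction term of the model. Ccl2 was lower in all 4 libraries labelled 2 h than in all 4 labelled 0 h, and on the log2 scale the fall was the smaller under the KO label. No other chemokine gene of the 9 tested passed this test. Leaving out each library gave 0.76 to 1.01, and the call was lost without either library labelled WT 2 h.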

How the results depend on the processing

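Of 875 alternative values for single chemokine genes, 860 kept the direction and the side of the threshold, or were not called in either fit, 10 were no longer called, 5 became called and none of the called values reversed. The number of chemokine genes called stayed at 8 under all alternatives for the KO time labels and for KO 0 h against WT 2 h. Leaving out each library gave 7 to 8 (7 also in DESeq2) for the WT time labels, 3 to 4 (4 also without a filter) for KO against WT at 0 h, 2 to 3 at 2 h, 8 to 9 for KO 2 h against WT 0 h, and 0 to 1 for the interaction, where the library left out was either of WT 2 h. The number of all genes called for KO against WT at 0 h, 502, was 809 without a filter and 322 with the replicate block. Leaving out each library gave 174 to 1073 genes (174 without WT 0 h replicate 1, 191 without WT 0 h replicate 2, 1073 without KO 0 h replicate 1). The 17 genes called for the interaction became 33 in DESeq2, 113 without a filter and 6 to 91 when each library was left out (6 without WT 2 h replicate 1, 9 without WT 0 h replicate 2, 91 and 30 without KO 0 h replicates 1 and 2, 35 without KO 2 h replicate 2). The causes were not tested. Library size alone moved the median of all genes by 0.14 between the WT time labels, 0.15 between the KO ones, -0.16 for KO 0 h against WT 2 h and 0.13 for KO 2 h against WT 0 h. Replicate numbers did not pair the libraries (correlations of deviations from -0.05 to -0.01), and the block changed no call of a chemokine gene. Depth limits Ccl5, Ccl8, Cxcl12 at 2 h and Cxcl10 in the libraries labelled WT.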
